A study of Mus musculus with 7 samples.

Results

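The LPS response of macrophages labelled as Tgm2 knockout was read by comparing 2 libraries of LPS-treated knockout cells (KO LPS) with the 1 library of untreated knockout cells (KO M0). These are 3 of the study's 7 libraries, chosen by the labelled genotype and treatment alone, and all genes were considered. The cells were bone marrow-derived macrophages, grown from the marrow of male mice aged 6 to 8 weeks for 7 days with M-CSF at 25 ng/ml, the growth factor that turns marrow precursors into macrophages. KO LPS cells then had lipopolysaccharide (LPS), a component of the outer membrane of Gram-negative bacteria, at 10 ng/ml for 6 hours, and KO M0 cells had M-CSF alone. Wild-type cells treated in the same ways (WT M0, n = 2, and WT LPS, n = 2) supply the spread between replicates and the comparison at the end. The labels name neither the allele nor the mouse strain and do not say whether Tgm2 was deleted in all tissues. Whether replicates are different mice or different dishes is not said either, so the p-values describe the spread of these libraries only, and that spread may be technical.

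The untreated side has 1 library, so its own spread is unknown and each fold change rests on that library's single value. The test assumes that it varies as the other groups do. Values are TPM, transcript abundances scaled for transcript length and to the same total in each library. The read depth behind them is therefore unknown. Changes are differences in log2(TPM + 1), called log2 changes here, and the added 1 shrinks them for genes near 0. A gene is called when its adjusted p from limma, with Benjamini-Hochberg adjustment over all 11096 genes tested, is under 0.05.

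LPS is sensed by Tlr4 together with Ly96 (MD-2) and Cd14. A branch through Myd88 activates NF-kappaB and MAP kinases within minutes and drives cytokine and chemokine genes. Another branch through Ticam1 (TRIF) and Ticam2 leads to interferon-beta, whose receptor switches on antiviral genes through factors that include Stat2 and Irf9. Inhibitors made during the response, such as Nfkbia, Tnfaip3, Irak3 and Socs1, restrain both branches, and macrophages at the same time lower many genes of their resting state. The product of Tgm2, tissue transglutaminase, joins proteins through stable crosslinks and is plentiful in resting macrophages.

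Tgm2 itself was reduced but not absent in the knockout. Its TPM was 50.7 in KO M0 and 19.4 and 19.2 in KO LPS, against 433 and 368 in WT M0 and 233 and 199 in WT LPS, so every knockout library lay below every wild-type one. It fell with LPS in knockout cells, with a log2 change of -1.35 (SE 0.20, limma adjusted p 0.0004). Of the other genes of the family, only Tgm4 and F13a1 passed the filter on low values, and F13a1, the coagulation transglutaminase of macrophages, fell from 124 TPM to 21.5 and 22.7.

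Some libraries stood apart from their labels or from each other. Xist, the RNA of the inactive X chromosome, was listed at 0 in the 3 knockout libraries and was near 0 in WT M0. It stood at 47.2 and 55.4 TPM in the WT LPS libraries, although all samples are labelled male. The wild-type LPS change therefore compares treated libraries that carry Xist with untreated ones nearly without it. Leaving out both WT LPS libraries gave 1482 genes higher and 2620 lower in KO LPS than in KO M0, close to the 1533 and 2700 with all libraries; a comparison of the responses of both genotypes cannot be made without them. KO M0 lay nearer to WT M0 replicate 2 (median absolute log2 difference 0.0959 over the tested genes) than the WT M0 libraries lay to each other (0.2208). Of 10 macrophage markers all were present in every knockout library, with a summed level of 5.018% of all TPM in KO M0 and 3.962% and 4.126% in KO LPS. The marker lists of B and plasma cells, T and NK cells, mast cells, dendritic cells and erythroid cells each held at most 0.0012% of TPM in any knockout library. Stromal and endothelial, osteoclast and megakaryocyte markers held 0.002933%, 0.005957% and 0.05008% in KO M0, and 0.004292% and 0.004468%, 0.009107% and 0.008554%, and 0.03741% and 0.03025% in KO LPS. Among 7 neutrophil markers in the tables, S100a8 and Camp rose with LPS (S100a8 from 5.01 TPM to 96.9 and 152), while S100a9 and Elane were listed at 0 in the 3 libraries and the summed level of the list went from 0.0005% to 0.0106% and 0.01609%. The part of such cells in the results was not tested. In bulk RNA a change in the share of cells that express a gene and a change in RNA per cell cannot be told apart.

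LPS raised cytokines, chemokines, interferon-stimulated genes and acute-phase proteins of knockout macrophages and lowered many genes of the resting cell. Of the 11096 genes tested, 1533 (13.8%) were called higher in KO LPS than in KO M0 and 2700 (24.3%) lower. In all 4233 of them both KO LPS libraries lay on the same side of KO M0. A call nearly requires this, so it is no separate support and says nothing of error in KO M0. The rises were fewer but larger. At a change of at least 3 log2 units there were 221 higher and 111 lower genes, and at 5 log2 units 44 higher and 7 lower. Genes called higher held 9.155% of all TPM in KO M0 and 32.33% and 33.59% in KO LPS, while genes called lower went from 38.82% to 17.2% and 16.04%. TPM sum to a fixed total, so a gain by some transcripts can lower the values of others. The median tested gene stood at -0.24, and the part of the fixed total in this was not tested. With median-ratio scaling, which puts that median at -0.01, 2110 genes were higher and 1849 lower, and with quantile normalization 1835 and 2163, so which direction held more genes depends on the scaling. The 2 KO LPS libraries had a median absolute log2 difference of 0.1969, and 195 genes (1.76%) lay over 1 log2 unit apart between them.

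**Figure D1:**
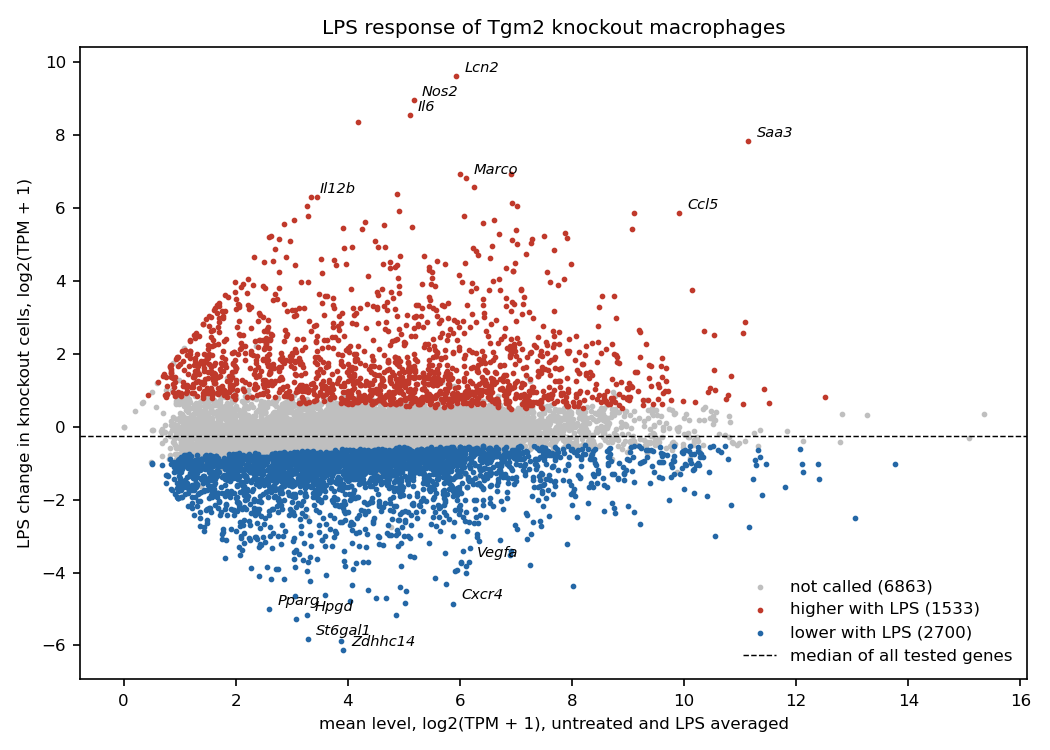
LPS change of every tested gene in knockout cells (vertical axis, KO LPS minus KO M0 in log2(TPM + 1)) against its level averaged over the 2 conditions (horizontal axis, log2(TPM + 1)). Red points are the 1533 genes called higher and blue points the 2700 called lower; the dashed line is the median of all tested genes at -0.24, and the rises reach further from it than the falls.

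A set of genes was nearly silent before LPS. There were 86 genes under 1 TPM in KO M0 and at least 5 TPM in both KO LPS libraries, 13 of them listed at 0 in KO M0, and 66 genes went the other way. U90926, a short LPS-induced transcript, was listed at 0 in KO M0 and stood at 316 and 339 TPM in KO LPS. Il12a, the p35 subunit of interleukin 12, was listed at 0 and then at 37.8 and 33.9 TPM. Tlr5, the flagellin receptor, went from 11.2 TPM to 0 in both treated libraries, and Pparg, a nuclear receptor of lipid metabolism and alternative activation, from 33.4 TPM to 0.151 and 0.

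The LPS receptor itself did not rise. Tlr4 stood at 91.7 TPM in KO M0 and at 28.6 and 39.7 in KO LPS, a log2 change of -1.42 (SE 0.31, limma adjusted p 0.0046, and 0.052 with no filter on low genes). Its partners Cd14 (3811 TPM, then 3702 and 3386) and Ly96 (46.4, then 39.5 and 70.5) were not called, and neither was the adaptor Ticam1 at 20.7, then 24.6 and 22.2 TPM. Of the 24 tested genes of the receptor complex and its adaptors, 7 rose, 1 fell and 16 were not called. Most of all tested genes were likewise not called (13.8% were higher and 24.3% lower). Irak3, the kinase-dead brake on Myd88 signalling, had the largest rise of the list, from 85.3 TPM to 398 and 419 (log2 change 2.25, SE 0.18, limma adjusted p 6.9e-06). The ubiquitin ligase Peli1 rose from 60.6 to 179 and 217 TPM, the kinase Map3k8 (Tpl2) from 18.3 to 57 and 57.4, the TRIF-branch adaptor Ticam2 from 26.4 to 67.8 and 68.6, and Myd88 from 175 to 328 and 348.

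Receptors for other microbial products split in both directions, with 14 of 24 tested higher and 6 lower, against 13.8% and 24.3% of all tested genes. The 2 formyl peptide receptors, which guide phagocytes toward bacterial peptides, were among the largest rises: Fpr1 went from 38.9 TPM to 1350 and 1555 (log2 change 5.18) and Fpr2 from 25.9 to 720 and 1087 (5.04). Marco, a scavenger receptor that binds bacteria, went from 5.46 to 943 and 570 TPM (6.83, SE 0.44, limma adjusted p 1.8e-06), and its treated libraries lay further apart than those of Fpr1. Sensors of viral RNA rose as well, Ddx58 (RIG-I) from 27.7 to 347 and 432 TPM, Ifih1 (MDA5) from 19.1 to 241 and 295 and Tlr3 from 5.92 to 60.6 and 77.4. Tlr9, the sensor of unmethylated DNA, fell from 81.3 to 8.71 and 11.1 TPM, and Clec7a (Dectin-1), the receptor of fungal beta-glucan, from 238 to 22.5 and 30.8.

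Of 24 tested genes of the NF-kappaB system, 7 rose, 1 fell and 16 were not called, and with median-ratio scaling 11 rose. Most of all tested genes were not called either, with 13.8% higher and 24.3% lower. The subunits Rela (172 TPM, then 202 and 158) and Nfkb1 (375, then 357 and 361) differed by less than the spread the test allows, and Rel was the 1 lower member, from 53 to 25.7 and 27.8 TPM. The members that rose were mainly feedback inhibitors and co-regulators. Nfkbiz, a nuclear co-activator needed for Il6, went from 69.8 to 247 and 252 TPM (log2 change 1.82). Tnfaip3 (A20), an enzyme that ends NF-kappaB signalling, went from 166 to 459 and 471 TPM (1.48), and Nfkbia, the inhibitor that holds NF-kappaB in the cytoplasm, from 593 to 1196 and 1154 (0.98, SE 0.18, limma adjusted p 0.0018).

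Immediate-early genes, which are switched on within minutes of a stimulus, moved in both directions by 6 hours. Of 30 tested genes of the AP-1, immediate-early and stress list, 13 were lower, 7 higher and 10 not called, with a median of -0.75 against -0.24 for all tested genes. Fos fell from 228 TPM to 22.6 and 21.1 (log2 change -3.33, SE 0.24, limma adjusted p 3.5e-06), Myc from 33.1 to 4.33 and 3.41 and Fosb from 6 to 0.149 and 0.117. Batf2 and Batf, AP-1 proteins linked to the interferon response and to late inflammatory genes, rose from 5.36 to 90.1 and 74.4 TPM and from 8.36 to 91.7 and 82.7. The phosphatases that switch off MAP kinases split likewise. Dusp5 fell from 172 to 4.14 and 6.23 TPM, Dusp16 rose from 10.5 to 89.7 and 102, and Dusp1 was not called at 299.9 TPM, then 229 and 254. Zfp36l1, an mRNA decay factor, fell from 236 to 16.6 and 16.9 TPM, whereas Zc3h12a (Regnase-1), the nuclease that degrades Il6 mRNA, rose from 113 to 235 and 206.

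Cytokine genes were more often higher than lower. Of 33 tested, 21 were higher, 6 lower and 6 not called (medians 1.67 for the list and -0.24 for all tested genes), and their summed level went from 0.2046% of all TPM in KO M0 to 0.8894% and 0.9051% in KO LPS. Il6 was at 0.78 TPM in KO M0 and at 617 and 718 in KO LPS. Il12b, the p40 subunit of interleukins 12 and 23, went from 0.146 to 85.3 and 95 TPM. Il1b, already at 307 TPM before LPS, reached 4026 and 4313 (log2 change 3.76), and Il1a went from 6.85 to 638 and 869 (6.57, SE 0.22, limma adjusted p 5.7e-08). Tnf rose from 155 to 1423 and 1091 TPM (3.00, SE 0.28, limma adjusted p 1.7e-05). Il27 rose from 3.58 to 183 and 105 TPM, with a wide gap between its treated libraries, and Csf3, the granulocyte growth factor, from 1.92 to 122 and 125.

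Il1rn, the antagonist of interleukin 1, went from 91.4 to 405 and 499 TPM (log2 change 2.29). Il10 went from 19.5 to 35.8 and 40.9 TPM, a change of 0.94 (SE 0.28, limma adjusted p 0.022) that was lost with no filter on low genes (adjusted p 0.0867) and without KO LPS replicate 2. Ifnb1 was near 0 and not tested, at 0.0926 TPM in KO M0 and 0.33 and 1.34 in KO LPS. The 6 lower members were growth factors and TNF family ligands. Vegfa, the vascular growth factor, fell from 256 to 19.5 and 18.1 TPM (-3.70), Pdgfb from 54.3 to 12.7 and 11.5, and Igf1 from 296 to 89 and 98.1.

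Chemokines for monocytes and T cells were among the most abundant induced transcripts. Of 12 tested CC chemokines 7 rose and 2 fell, and of 12 CXC and other chemokines 7 rose and 2 fell, with medians of 2.83 and 1.62. Ccl5 (RANTES) went from 125 TPM to 8816 and 6144, Ccl3 from 70.7 to 5496 and 3230 and Ccl4 from 52.8 to 1246 and 1137, so replicate 1 was the higher in each. Ccl7 and Ccl12, ligands of Ccr2, had the opposite order: Ccl7 went from 18.8 to 567 and 1225 TPM and Ccl12 from 2.66 to 116 and 248. Cxcl10, an interferon-induced ligand of Cxcr3, rose from 81.1 to 2833 and 4386 TPM (log2 change 5.42, SE 0.52, limma adjusted p 2.2e-05), and its relatives Cxcl11 and Cxcl9 from 0.135 to 14.3 and 18 and from 0.293 to 15.8 and 15.1. The neutrophil chemokines Cxcl1 (290 TPM, then 1564 and 1238) and Cxcl2 (522, then 3703 and 2873) started higher and rose by 2.26 and 2.64. Ccl24 (eotaxin-2) and Ccl6 fell, from 9.46 to 0.327 and 0.114 TPM and from 1082 to 251 and 226.

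NF-kappaB is known to act through short sites near the start of some of these genes. Promoter windows from RefSeq (GRCm38.p6, 250 bases before to 50 after each gene's start) were searched on both strands for GGGANTTTC or GGAANTTCC, patterns that can overlap each other. A match was found for 5 of the 9 tested CXC and other chemokines with a window (55.6%), 1 of 7 CC chemokines (14.3%) and 3 of 23 cytokines (13%). It was found for 5.44% of the 349 genes with a window called higher by at least 2 log2 units, for 0.683% of the 293 called lower by as much, and for 2.45% of the 8822 tested genes with a window. The AP-1 pattern TGANTCA, searched in the same way, did not separate the directions. Its shares in these 3 sets were 14.6%, 14.7% and 6.29%. A match describes letters only and is no evidence of binding; the 2 matches shown for Nfkbia overlap, as do the 2 for Cxcl1. The stretches around the match nearest to the start, with the matched letters in capitals, are shown for an interleukin, an inhibitor and a chemokine that rose. They lie at chr5:30013015-30013113 (Il6, plus strand), chr12:55492648-55492730 (Nfkbia, minus strand) and chr5:90891120-90891238 (Cxcl1, plus strand).
Il6: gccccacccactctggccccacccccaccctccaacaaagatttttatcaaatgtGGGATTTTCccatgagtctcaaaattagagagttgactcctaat
Nfkbia: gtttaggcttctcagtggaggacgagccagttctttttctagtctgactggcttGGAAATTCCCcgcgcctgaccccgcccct
Cxcl1: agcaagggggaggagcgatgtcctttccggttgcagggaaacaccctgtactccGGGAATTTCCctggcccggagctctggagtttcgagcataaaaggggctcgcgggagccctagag

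Receptors for chemokines and cytokines were lowered more often than raised, as were all tested genes (24.3% lower and 13.8% higher). Of 19 tested chemoattractant receptors 11 fell and 6 rose, and of 35 cytokine receptors 16 fell and 7 rose. Cxcr4, which retains cells in marrow, fell from 314 to 9.11 and 10.7 TPM (log2 change -4.85, SE 0.37, limma adjusted p 4.9e-06), and Ccr2, the receptor of Ccl2, from 13.8 to 0.865 and 0.765. Both chains of the interleukin 6 receptor fell, Il6ra from 77.8 to 20.8 and 26.1 TPM and the signalling chain Il6st from 72.7 to 11.6 and 11.3. Tgfbr2, the TGF-beta receptor, fell from 134 to 15.8 and 19.6 TPM. Il15ra, which presents interleukin 15 to lymphocytes, rose from 1.96 to 66.4 and 59.9 TPM, the costimulatory receptor Cd40 from 34.6 to 370 and 343, and the decoy receptor Ccrl2 from 29.2 to 234 and 252.

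**Figure D2:**
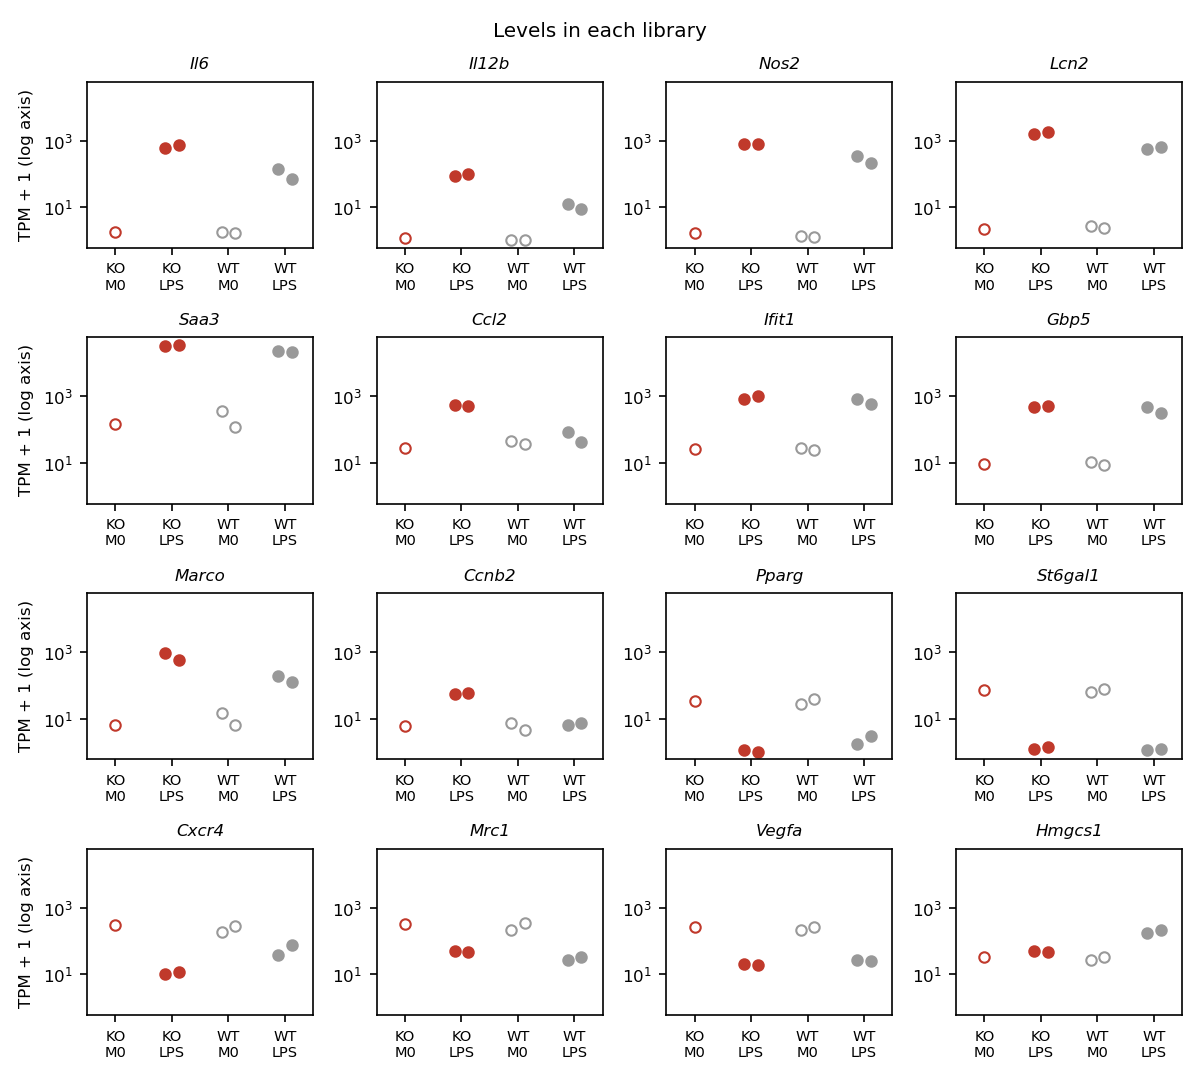
Level of 16 named genes in each of the 7 libraries (vertical log axis, TPM + 1; open circles untreated, filled circles LPS, red knockout, grey wild type). Each circle is 1 library; the 2 KO LPS circles lie on the same side of the KO M0 circle for every gene shown, and Ccnb2 and Ccl2 are the panels where the WT LPS circles stay near the untreated ones while the KO LPS circles rise.

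Nearly all interferon-stimulated antiviral genes rose. Of 58 tested, 56 rose, 0 fell and 2 (Trim25 and Slfn2) were not called, with a median of 2.82 and a summed level of 0.6561% of TPM in KO M0 and 2.757% and 2.991% in KO LPS. Usp18, the protease that removes Isg15 from proteins and dampens interferon signalling, had the largest rise of the list, from 12.6 TPM to 651 and 752 (log2 change 5.69, SE 0.29, limma adjusted p 4.4e-07). Isg15, the ubiquitin-like modifier, went from 36.3 to 1632 and 1368 TPM, Ifit1, which binds foreign RNA caps, from 25.4 to 820 and 1057, and Rsad2 (viperin), which makes a chain-terminating nucleotide, from 27.2 to 684 and 828. The interferon-inducible GTPases, which attack membranes around intracellular microbes, had a median of 4.38, with 17 of 18 higher and 0 lower. Gbp6 went from 2.24 to 254 and 284 TPM, Gbp5 from 8.14 to 485 and 516, and Gbp2 from 37.2 to 1046 and 1168. Members of this family are similar in sequence, so reads may be split between them. Gvin1, the member not called, was at 26.5 TPM in KO M0 and 142 and 8.74 in KO LPS, and such a gap between replicates allows no call.

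Genes that carry the interferon signal rose with their targets. Stat2 went from 24.1 to 282 and 290 TPM and Irf7, which amplifies interferon production, from 113 to 1220 and 1022 (log2 changes 3.52 and 3.29). Socs1, the inhibitor of Jak kinases, rose from 6.56 to 114 and 81.9 TPM. Stat6, which carries the interleukin 4 signal, fell from 155 to 90.9 and 83.4 TPM and Irf5 from 457 to 174 and 170. In all, 12 of 29 tested STAT, IRF and SOCS genes rose and 6 fell, against 13.8% and 24.3% of all tested genes.

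Interferon acts on these genes through the interferon-stimulated response element. Its core, searched as GAAANTGAA on both strands, was found in the promoter windows of 13 of 49 tested antiviral genes (26.5%) and 7 of 9 GTPases (77.8%), against 9.74% of genes called higher by at least 2 log2 units, 1.71% of those called lower by as much and 2.22% of all tested genes with a window. The windows shown here belong to 2 antiviral genes, a GTPase and a chemokine, with matches in capitals, and Ifit1 holds 3 matches, 2 of them overlapping. They lie at chr19:34640750-34640868 (Ifit1, plus strand), chr12:26456508-26456626 (Rsad2, minus strand), chr3:142496715-142496833 (Gbp5, plus strand) and chr5:92349039-92349139 (Cxcl10, minus strand).
Ifit1: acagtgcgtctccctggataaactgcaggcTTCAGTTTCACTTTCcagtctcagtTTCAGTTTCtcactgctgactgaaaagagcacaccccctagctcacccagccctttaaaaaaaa
Rsad2: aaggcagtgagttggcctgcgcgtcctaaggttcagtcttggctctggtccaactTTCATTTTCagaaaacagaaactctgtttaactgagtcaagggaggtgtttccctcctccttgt
Gbp5: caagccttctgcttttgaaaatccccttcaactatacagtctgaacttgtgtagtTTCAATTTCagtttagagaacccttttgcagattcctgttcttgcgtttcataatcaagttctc
Cxcl10: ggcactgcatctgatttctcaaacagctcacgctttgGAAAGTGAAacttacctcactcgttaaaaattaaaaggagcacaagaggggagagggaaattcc

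The 2 antigen presentation pathways moved in opposite directions. Of 23 tested genes of MHC class I and peptide loading, 17 rose and 0 fell, whereas of 10 MHC class II genes 7 fell and 2 rose. The peptide transporter Tap1 rose from 38.9 to 419 and 314 TPM and the proteasome activator Psme2 from 157 to 804 and 774. H2-K1, a classical class I heavy chain, went from 2345 to 3876 and 3502 TPM, a change of 0.65 that was lost in 4 alternatives (adjusted p up to 0.0909). Cd74, the invariant chain of class II, fell from 6299 to 2068 and 1969 TPM, H2-Aa from 1710 to 401 and 443 and H2-Eb1 from 867 to 201 and 201 (log2 changes -1.64, -2.02 and -2.10). The summed level of class II went from 1.071% of TPM to 0.3529% and 0.3432%. H2-Oa, an inhibitor of class II peptide loading, was the larger of the 2 rises, from 0.476 to 5.54 and 3.59 TPM.

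Costimulatory and maturation genes mostly rose, 14 of 22 tested against 6 lower. For all tested genes the shares were 13.8% higher and 24.3% lower, the latter near that of this list. Cd274 (PD-L1), the ligand that inhibits T cells, went from 26.8 to 493 and 595 TPM, Cd38, an NAD-consuming enzyme of inflammatory macrophages, from 16.2 to 465 and 607, and Fscn1, an actin bundler of mature dendritic cells, from 4.3 to 135 and 99.2. Ccr7, the lymph node homing receptor, was listed at 0 in KO M0 and stood at 3.02 and 2.33 TPM in KO LPS. Cd83 fell from 239 to 14.3 and 14.3 TPM and Cd86, a ligand of Cd28, from 163 to 43.6 and 63.8.

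Nitric oxide, arginine and itaconate enzymes were divided, with 8 of 19 tested higher, 5 lower and 6 not called and a median of -0.25, near that of all tested genes. Nos2, which makes nitric oxide from arginine, was at 0.613 TPM in KO M0 and at 815 and 804 in KO LPS. The arginine importer Slc7a2 went from 11.3 to 531 and 659 TPM (log2 change 5.59), Gch1, which supplies the cofactor of Nos2, from 59.1 to 221 and 250, and Acod1 (listed as Irg1), the itaconate enzyme, from 802 to 6138 and 5778 (2.89). Odc1, the first enzyme of polyamine synthesis and a competing use of arginine's product, fell from 405 to 30.4 and 38.5 TPM (-3.53, SE 0.20, limma adjusted p 8.8e-07). Arg1, the classical marker of alternative activation, stayed low at 1.45 TPM, then 0.91 and 1.22, and was not called. Of 22 tested prostaglandin and leukotriene enzymes and receptors, 7 rose, 10 fell and 5 were not called (median -0.55). Of all tested genes 13.8% were higher and 24.3% lower. The inducible Ptgs2 (COX-2) rose from 13.5 to 974 and 1077 TPM and Ptges, the prostaglandin E synthase, from 55 to 814 and 858. The constitutive Ptgs1 fell from 17 to 1.73 and 1.88 TPM and Hpgd, which inactivates prostaglandins, from 56.7 to 0.735 and 0.488. Pla2g4a and Ptgir also rose (log2 changes 2.83 and 1.74), and Pla2g15, Ptger4 and Tbxas1 fell (-2.71, -2.38 and -2.01).

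Several secreted acute-phase and defence proteins rose steeply. Saa3, a serum amyloid A protein, stood at 149 TPM in KO M0 and at 33379 and 35158 in KO LPS (log2 change 7.84, SE 0.48, limma adjusted p 1.3e-06). Lcn2, which captures bacterial iron carriers, went from 1.17 to 1594 and 1870 TPM, Hp (haptoglobin) from 14.8 to 1015 and 1101 and Cfb, the alternative-pathway complement factor, from 9.83 to 1301 and 1365 (9.64, 6.07 and 6.94). Serpinb2, an inhibitor of plasminogen activators, rose from 4.76 to 668 and 752 TPM and Ptx3, a soluble pattern receptor, from 0.223 to 91.4 and 102. The complement list was divided, with 6 of 19 tested higher and 9 lower. The classical-pathway subunits C1qa and C1qb fell from 1503 to 304 and 182 TPM and from 5114 to 1341 and 1444, and C3 rose from 230 to 867 and 869. The 15 genes with the largest rises together held 0.02095% of TPM in KO M0 and 4.276% and 4.519% in KO LPS, most of it Saa3.

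Genes of cell death and inflammasomes were more often higher (11 of 24 tested) than lower (5). The lower share was near the 24.3% of all tested genes, of which 13.8% were higher. Zbp1, a sensor of left-handed nucleic acids, went from 40.3 to 491 and 480 TPM, Mlkl, the executor of necroptosis, from 15.6 to 159 and 169, and Casp1 from 133 to 311 and 332. Nlrp3 went from 340 to 581 and 522 TPM (log2 change 0.69, SE 0.21, limma adjusted p 0.026), lost in 3 alternatives (adjusted p up to 0.0903). Nlrp1b fell from 27.3 to 1.87 and 2.36 TPM and the adaptor Pycard (ASC) from 45.4 to 20.7 and 23.1. In the Bcl2 family, the survival gene Bcl2a1a rose from 20.9 to 200.3 and 242 TPM, although reads may be shared with its near-identical copies, and the pro-death genes Bmf, Bcl2l11 (BIM) and Pmaip1 (NOXA) fell, for example Bcl2l11 from 83 to 26 and 23.2.

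Most markers of alternative activation fell. Of 20 tested alternative activation markers 17 fell and 1, Msr1, rose, with a median of -1.97. Mrc1, the mannose receptor, fell from 323 to 50.1 and 47.7 TPM, Clec10a, a galactose lectin, from 131 to 3.14 and 5.18, and Trem2, a lipid receptor, from 988 to 212 and 175 (log2 changes -2.70, -4.70 and -2.35). Of the scavenger and apoptotic cell uptake genes, 19 of 27 tested were lower and 4 higher. Cd5l, a scavenger protein of resident macrophages, fell from 85 to 2.45 and 1.87 TPM, and Gas6, the ligand that bridges dying cells to Axl and Mertk, from 638 to 113 and 117. Macrophage identity factors and surface markers were divided, with 8 of 32 tested higher, 7 lower and 17 not called (median -0.17). Their lower share was near the 24.3% of all tested genes, of which 13.8% were higher. Ly6a, a surface marker, rose from 45.1 to 213 and 283 TPM (log2 change 2.42), and the lineage factor Cebpa fell from 82.8 to 20.3 and 12 TPM (-2.33). The M-CSF receptor Csf1r was at 3175 TPM and then 1982 and 2089, a change of -0.64 (SE 0.19, limma adjusted p 0.024) that was lost in 8 alternatives, among them median-ratio scaling (-0.39). Adgre1 (listed as Emr1, encoding F4/80) and Itgam were not called, at 1406, 1503 and 1715 TPM and at 810, 745 and 780.

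The largest falls among all genes reached well beyond these lists. Zdhhc14, a palmitoyltransferase, went from 125 TPM to 0.881 and 0.705 (log2 change -6.13, SE 0.25, limma adjusted p 1.4e-07), St6gal1, which adds sialic acid to glycans, from 72.6 to 0.218 and 0.392, and Eps8, an actin capping protein, from 51.8 to 0.415 and 0.3. Mtss1, which bends membranes, fell from 174 to 3.92 and 3.87 TPM, Arhgap18, a GTPase-activating protein, from 114 to 3.69 and 3.16, Tns1 (tensin 1) from 40.6 to 0.742 and 0.584, and Cytip, which binds cytohesin, from 58.8 to 1.27 and 1.62. Tsc22d3 (GILZ), a glucocorticoid-induced repressor of inflammation, fell from 154 to 6 and 5.75 TPM (-4.50, SE 0.23). Tmem37 fell from 96.8 to 3.45 and 3.26 TPM. These genes were selected for large called falls with both treated libraries below KO M0, so the agreement of the treated libraries follows from the selection.

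Genes of cholesterol export and lysosomes were mostly lower. Of 30 tested genes of cholesterol efflux, lipid droplets and nuclear receptors, 20 fell and 3 rose. Apoe, among the 10 most abundant transcripts in KO M0 at 20163 TPM, dropped to 3805 and 3349, Pltp, the phospholipid transfer protein, from 4262 to 607 and 470, and the cholesterol pumps Abca1 and Abcg1 from 312 to 91 and 120 and from 77.8 to 12.8 and 12.1. The 3 that rose were Ch25h, the enzyme of 25-hydroxycholesterol (10.2 TPM, then 222 and 283), the fatty acid activating enzyme Acsl1 (106, then 1268 and 1296) and Ppard. Of 40 lysosome and proton pump genes 22 fell and 1, Ctsc, rose, and with median-ratio scaling 17 fell and 4 rose. Atp6v0d2, a proton pump subunit, fell from 75 to 2.57 and 3 TPM, Psap (prosaposin) from 8919 to 3411 and 3262 and Ctsb (cathepsin B) from 6840 to 2864 and 2900.

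In glycolysis and the hypoxia response 14 of 31 tested rose and 5 fell. Pfkfb3, which drives glycolytic flux, rose from 65.1 to 307 and 272 TPM, Hk2 from 18.5 to 71.3 and 67.1 and the transporter Slc2a6 from 221 to 936 and 811, while Gapdh was not called at 1734, 2209 and 1633 TPM. Oxidative phosphorylation subunits were mostly not called (38 of 44, with 2 higher and 4 lower), and in the citrate cycle and fatty acid oxidation 5 of 33 rose and 9 fell, shares near the 13.8% and 24.3% of all tested genes. Idh2 fell from 40.6 to 13.7 and 12.3 TPM. Amino acid and unfolded protein stress genes (8 of 30 higher, 6 lower, 16 not called) and antioxidant genes (12 of 34 higher, 6 lower, 16 not called) moved in both directions. The largest rise of both lists was that of the cystine importer Slc7a11, from 13.9 to 262 and 272 TPM (log2 change 4.17, SE 0.19, limma adjusted p 2.5e-07). Phgdh, the first enzyme of serine synthesis, rose from 3.36 to 50.7 and 33.3 TPM, Mthfd2, of mitochondrial folate metabolism, from 13.7 to 83.7 and 80.5, Gsr (glutathione reductase) from 98.3 to 485 and 479 and Sod2 from 306 to 1134 and 1185. Blvra (biliverdin reductase) fell from 145 to 52.2 and 55.4 TPM, Gpx4, which repairs oxidized lipids, from 482 to 237 and 245, and Ern1 (IRE1 alpha), a sensor of unfolded proteins, from 54 to 21.9 and 18.7. Fth1, the ferritin heavy chain, was the most abundant transcript of KO LPS at 48081 and 46595 TPM and was not called against 37027 in KO M0.

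Cytosolic ribosomal protein genes had only lower calls, 26 of 49 with 0 higher, but with median-ratio scaling 7 were lower, so most of these calls were lost under that scaling. Rps14 fell from 2151 to 893 and 932 TPM. Ribosome biogenesis (12 of 40 lower, 0 higher) and the circadian clock (7 of 18 lower, 0 higher) had no rises either. Of all tested genes 24.3% were lower and 13.8% higher, so the share of lower ribosome biogenesis genes was near that of all genes. The clock output factors Dbp and Tef and the repressor Nr1d1 (REV-ERB alpha) fell, Dbp from 7.33 to 0.968 and 0.986 TPM, and the core factor Arntl (BMAL1) was not called at 14.2, 11.1 and 9.12 TPM. Receptors for purines and lipid mediators were split (8 of 27 higher, 10 lower): Adora2a, the adenosine receptor that raises cyclic AMP, rose from 12.3 to 156 and 139 TPM, and Entpd1 (CD39), which degrades extracellular ATP, fell from 139 to 4.97 and 6.46. Kdm6b (JMJD3), a histone demethylase known as an early LPS target, was lower at 6 hours, from 58.8 to 14 and 8.96 TPM.

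**Figure D3:**
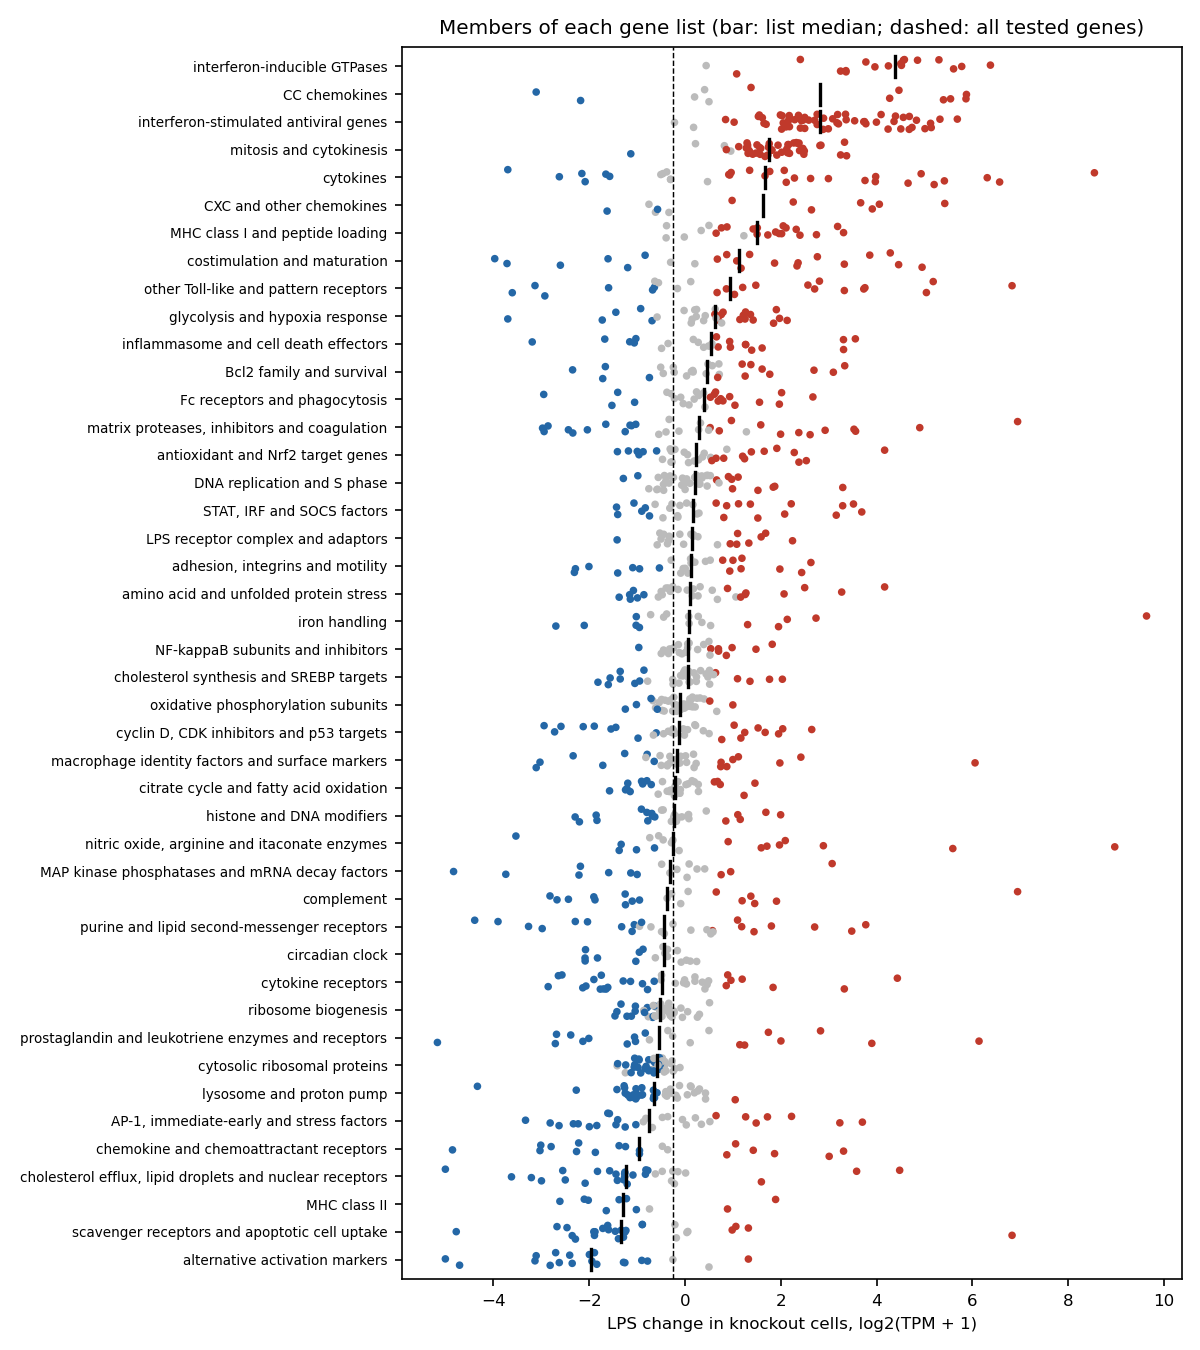
LPS change in knockout cells of each member of the gene lists with at least 10 tested members (horizontal axis, log2(TPM + 1); 1 row per list, ordered by median). Red points were called higher, blue lower and grey not called; black bars are list medians and the dashed line is the median of all tested genes at -0.24. Interferon-inducible GTPases lie furthest to the right (median 4.38), and alternative activation markers furthest to the left (-1.97).

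Genes of mitosis rose in knockout macrophages under LPS. Of 47 tested genes of mitosis and cytokinesis 43 rose, 1 (Cenpa) fell and 3 were not called, with a median of 1.76, and their summed level went from 0.03353% of TPM in KO M0 to 0.1194% and 0.1257% in KO LPS. Ccnb1, the cyclin that brings cells into mitosis, went from 5.28 to 57.7 and 71.3 TPM (log2 change 3.37, SE 0.32, limma adjusted p 2.1e-05) and Ccnb2 from 5.02 to 53.2 and 59.7. Ube2c, which helps to degrade the cyclins, rose from 15.2 to 138 and 189 TPM, Birc5 (survivin) from 3.98 to 30.8 and 38.9, Top2a from 10.3 to 47 and 50.4 and Mki67, the proliferation marker, from 16.2 to 69.6 and 58.6. Cenpa, the centromere histone, went the other way, from 72.5 to 30.3 and 35.1 TPM. Genes of DNA replication did not rise as a block, with 9 of 41 tested higher, 2 lower and 30 not called. Mcm10 went from 0.539 to 13.9 and 14.3 TPM, whereas Mcm2 (4.21, then 3.07 and 3.33), Mcm4 (15.1, then 10.1 and 11.5) and Pcna (273, then 199 and 206) were not called. Among the D cyclins, which couple growth factors to the cell cycle, Ccnd1 fell from 23.4 to 3.06 and 3.05 TPM while Ccnd2 and Ccnd3 rose, from 7.03 to 29.7 and 34.6 and from 23.2 to 87.2 and 99.1. The CDK inhibitor Cdkn1a (p21) rose as well, from 229 to 571 and 465 TPM, a call lost with no filter (limma adjusted p 0.0537).

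Late cell cycle genes often carry the short CHR element, searched here as TTTGAA on both strands. It was found in 28 of 39 promoter windows of the tested mitosis genes (71.8%), against 14.5% of all tested genes with a window and 21.2% of those called higher by at least 2 log2 units. Other lists held it too, among them 4 of 9 GTPases (44.4%), 3 of 7 CC chemokines (42.9%) and 14 of 49 antiviral genes (28.6%). A run of 6 letters is frequent by its length alone. The E2F patterns TTTGGCGC and TTTCCCGC, also searched, were found in 0 of the 39 windows of mitosis genes and in 3.56% of all tested genes with a window. The stretch around the match of Ccnb2 that lies before the start is at chr9:70421661-70421776 (minus strand), with the match in capitals.
Ccnb2: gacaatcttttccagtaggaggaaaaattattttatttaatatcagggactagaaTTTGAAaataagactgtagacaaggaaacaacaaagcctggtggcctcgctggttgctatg

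**Figure D4:**
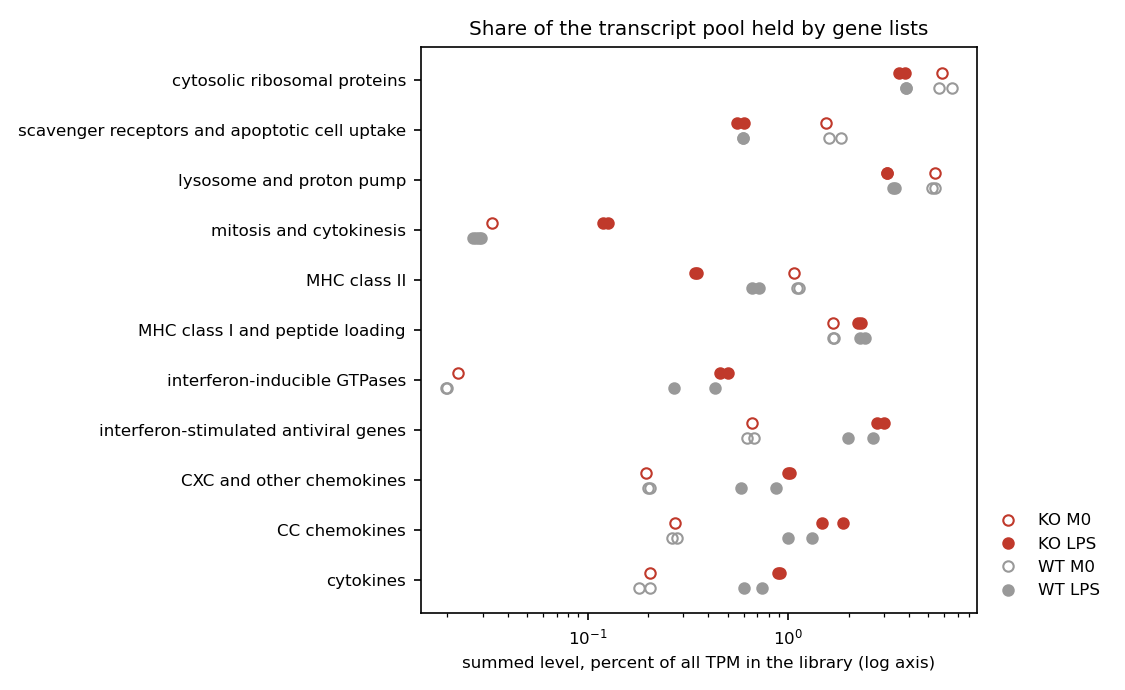
Summed level of 11 gene lists as percent of all TPM in each library (horizontal log axis; open circles untreated, filled circles LPS, red knockout, grey wild type). Mitosis genes hold 0.03353% in KO M0 and 0.1194% and 0.1257% in KO LPS, while both WT LPS libraries lie at 0.02674% and 0.02952%. MHC class II lies at 0.3529% and 0.3432% in KO LPS and at 0.7163% and 0.6572% in WT LPS. Of its 10 tested genes, however, 0 were called higher and 0 lower in the test of the difference between responses (median difference 0.19).

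Some transcripts differed widely between the KO LPS libraries, and the size of their changes cannot be read. Ndufs5, a complex I subunit, stood at 0.774 and 61.8 TPM, with 70.3 in KO M0. Tmsb10 was at 661 and 146 TPM, with 569 in KO M0, and Pfdn2 at 65 and 11.5, with 31.9. Il4i1, which degrades aromatic amino acids, was at 12 and 34.6 TPM in KO LPS and the overlapping transcript Nup62-il4i1 at 30.2 and 2.97, so the 2 differ in opposite ways and reads may have been divided between them. Il4i1 was still called higher than in KO M0 (log2 change 3.86, limma adjusted p 0.0019, and 0.0517 with no filter), and Nup62-il4i1 was not called. Ly6c2 rose from 0.178 to 66.3 and 90.4 TPM and has a near-identical neighbour, Ly6c1, so its level is uncertain too.

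Whether the knockout response differs from the wild-type one was tested as the KO LPS change minus the WT LPS change. The difference was called for 94 genes (0.847%) in the higher direction and 58 (0.523%) in the lower one, and 1160 genes had an unadjusted p under 0.05. For the other genes no difference was called, which does not show that the genotypes responded alike. This comparison is fragile. The 152 calls fell to 10 (1 higher, 9 lower) with no filter on low genes, to 6 (0 higher, 6 lower) without WT M0 replicate 1, to 67 without WT M0 replicate 2 and to 72 without either KO LPS library. It rests on the single KO M0 library. Its wild-type arm sets the WT LPS pair, which carries Xist, against a WT M0 pair nearly without it. The part of this mismatch in the comparison was not tested. Of the 94 genes, 77 were called higher in the knockout response itself, against 13.8% of all tested genes. Of the 58, 29 were called lower in it, against 24.3%. The difference contains the knockout change, so this overlap is partly built in and is no separate support.

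Monocyte chemokines and cytokines led the larger knockout responses. Ccl7 was at 18.8 TPM in KO M0 and 567 and 1225 in KO LPS, but at 28.9 and 25.6 in WT M0 and 64.2 and 31.2 in WT LPS, a difference of 4.70 log2 units between responses (SE 0.58, limma adjusted p 0.0058, 0.158 with no filter and 0.107 without WT M0 replicate 1). Ccl2 was at 46 and 35.4 TPM in WT M0 and 85.2 and 42.2 in WT LPS, against 27, then 564 and 520 in the knockout. Il6 reached 137 and 70.6 TPM in WT LPS and Il12b 11.3 and 7.68, below both KO LPS libraries in each case, and the differences between responses were 2.68 and 3.02. Without WT M0 replicate 1 the calls of Il6 (limma adjusted p 0.13), Il12b (0.0707) and Ccl2 (0.0895) were lost too. Zdhhc2, a palmitoyltransferase, rose from 0.205 to 29.4 and 40.2 TPM in the knockout and reached 4.72 and 5.83 in WT LPS. No member of the antiviral or GTPase lists was called in this test, and their medians of the difference were 0.28 and 0.35. Of all tested genes only 0.847% were called higher and 0.523% lower. At such shares, lists of 58 and 18 tested genes can be without a call, so this says little about them.

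Of 47 tested mitosis genes 25 had a higher knockout response and 0 a lower one, with a median difference of 1.81, and the list's median change in wild type was 0.07. The calls were lost entirely, from 25 to 0, without WT M0 replicate 1 and with no filter, and fell to 3 without WT M0 replicate 2, to 9 and 8 without KO LPS replicates 1 and 2 and to 10 with a pseudocount of 0.1. The median difference stayed between 1.59 and 2.00 in the alternatives run. Ccnb2 was at 6.16 and 3.59 TPM in WT M0 and 5.49 and 6.48 in WT LPS, and was not called there. Without WT M0 replicate 1 its difference between responses missed the threshold (limma adjusted p 0.0707). Mcm10, of DNA replication, was at 1.19 and 0.925 TPM in WT M0 and 1.85 and 1.47 in WT LPS, all under the KO LPS values of 13.9 and 14.3. Knstrn (listed as D2Ertd750e), a spindle protein, reached 16.8 and 16.3 TPM in KO LPS but only 1.29 and 2.52 with LPS in wild type. Cenpa fell in both genotypes but to 4.38 and 5.29 TPM in WT LPS, below the 30.3 and 35.1 of KO LPS.

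Of 34 tested cholesterol synthesis genes and SREBP targets, 16 had a lower knockout response and 0 a higher one, with a median change of 0.06 in the knockout and 1.65 in wild type. All 16 calls were lost without WT M0 replicate 1 and with no filter, and 9 were left without WT M0 replicate 2 and 10 without KO LPS replicate 2. The median difference was -1.56 and stayed between -1.74 and -1.45 in the alternatives run. In the knockout itself 5 rose and 8 fell, shares near the 13.8% and 24.3% of all tested genes. With median-ratio scaling 10 rose and 8 fell. Hmgcs1, the enzyme that forms HMG-CoA, was at 33.2 TPM in KO M0, 47.8 and 45.6 in KO LPS, and 175 and 219 in WT LPS; its knockout change of 0.48 was not called, but passed with median-ratio scaling (0.73, limma adjusted p 0.0146). Cyp51, a later enzyme of the pathway, reached 25.2 and 26.9 TPM in KO LPS and 112 and 130 in WT LPS. Sqle, the squalene epoxidase, fell from 53.6 to 26.5 and 28.3 TPM in the knockout and stood at 114 and 155 in WT LPS against 41.6 and 50.7 in WT M0. Fdps, Idi1 and Fdft1, which build the isoprenoid chain, rose in the knockout, Fdps from 22.8 to 89.5 and 104 TPM. The sterol regulatory element, searched as TCACNCCAC, was present in the promoter window of 1 of 24 members with a window and of 1.31% of all tested genes, and the 1 member was Hmgcs1, at chr13:119690159-119690277 (plus strand).
Hmgcs1: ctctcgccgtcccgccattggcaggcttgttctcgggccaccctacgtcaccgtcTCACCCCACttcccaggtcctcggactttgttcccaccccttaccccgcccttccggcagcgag

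Tsc22d3 and Cxcr4 fell in both genotypes, and further in the knockout. Tsc22d3 was at 104 and 143 TPM in WT M0 and 49.9 and 45.6 in WT LPS, against 154 falling to 6 and 5.75 in the knockout, a difference of -3.17 (SE 0.30, limma adjusted p 0.0015, and 0.0644 with no filter), and it kept its call without WT M0 replicate 1. Cxcr4 reached 36.3 and 73.6 TPM in WT LPS against 9.11 and 10.7 in KO LPS, a difference lost in 5 alternatives. Other genes with a lower knockout response rose in wild type. Gdf3, a TGF-beta family ligand, fell from 15.1 TPM in KO M0 to 0.862 and 1.11, while in wild type it rose from 8.09 and 8.07 to 13.2 and 12.2. Scd2, a fatty acid desaturase, fell from 16.9 to 5.5 and 4.67 TPM in the knockout, a call lost with no filter (limma adjusted p 0.0919), and stood at 43.3 and 93.8 in WT LPS against 12.9 and 20.1 in WT M0. Pydc3 (Ifi208), of the interferon-inducible p200 family, was at 61 and 35.2 TPM in WT LPS against 0.412 and 0.147 in KO LPS, and Mid1, a ubiquitin ligase not called in the knockout, at 16 and 10.8 and at 5.6 and 5.11. Arg1 likewise rose in wild type, to 7.69 and 11.2 TPM there from 1.12 and 1.09, while the knockout stayed at 1.45, 0.91 and 1.22.

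**Figure D5:**
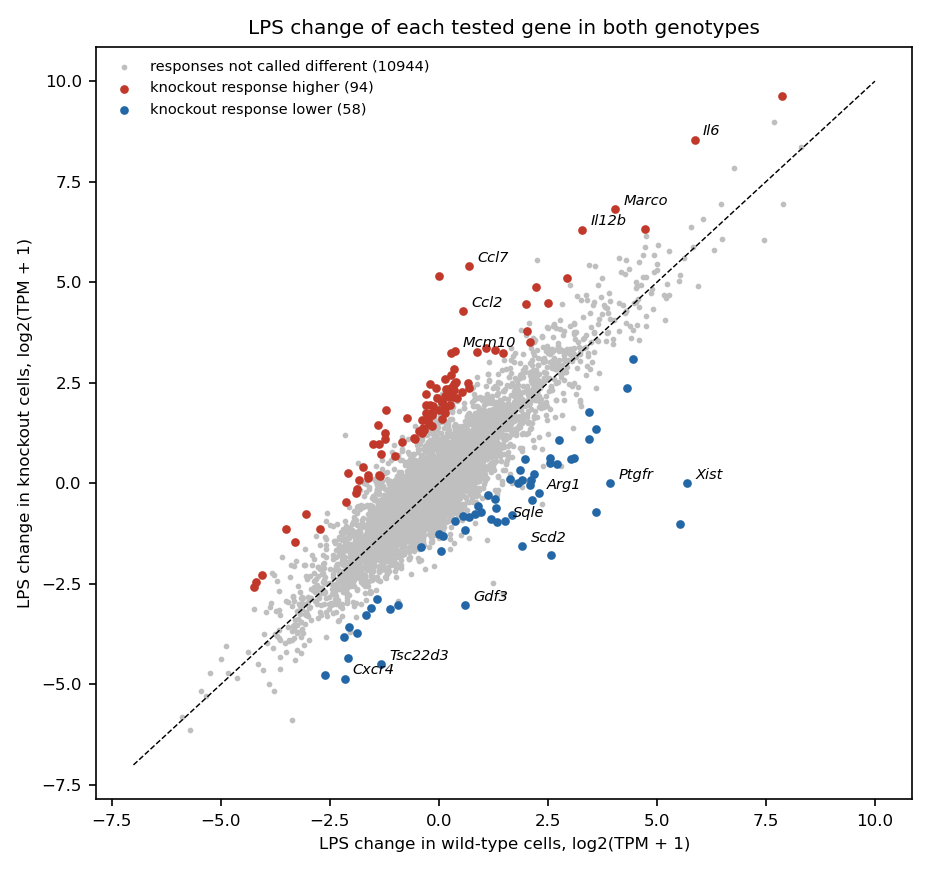
LPS change of each tested gene in wild-type cells (horizontal axis) and in knockout cells (vertical axis), both in log2(TPM + 1); the dashed line marks equal changes. Red points (94) had a higher and blue points (58) a lower knockout response in the test of the difference; Ccl7 and Ccl2 lie far above the line, and Xist, Ptgfr and Scd2 far below it.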

How the data were processed

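The authors deposited TPM values per gene, in one table per sample. Each table had the same total. The submitters' processing notes name the build mm10. Which aligner, quantifier and annotation were used is not stated in those notes or labels. Of 23337 genes, the 11096 with a mean of at least 1 TPM over the 7 libraries were tested on log2(TPM + 1) with limma 3.58.1 in R 4.3.3 (group means, trended variance, Benjamini-Hochberg adjustment, threshold 0.05). All 7 libraries shared 1 variance estimate with 3 residual degrees of freedom, so KO M0, a single library, was assumed to vary like the others. The difference between responses was a contrast of the same fit. TPM are no counts, so no count model was used.

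The gene lists were chosen with earlier results of these data known. Genes named are Tgm2, the 15 largest called rises and 15 falls and the 10 largest called differences between responses each way (at least 1 log2 unit and 5 TPM), the 10 most abundant genes, up to 4 members of each list with the smallest p each way, the 5 genes furthest apart between KO LPS libraries each way, and 20 genes chosen by name, such as Tnf and Mrc1, leaving out predicted genes; other named genes were chosen after their values were seen. The scripts were tested on simulated data, where the share of false calls was above the nominal threshold and only part of the changes of 1 log2 unit were recovered, so the counts of called genes are approximate. Alternatives covered the scaling, pseudocount, filter, samples in the fit, the replicate block and leaving out each library. Some genes are not reported here.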

Additional observations from a re-analysis of the deposited data

Results flagged for a closer look

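The LPS response differed between knockout and wild-type cells for 152 genes in limma's test of the difference itself. Values are the knockout change minus the wild-type change in log2(TPM + 1). Larger knockout responses were those of Ccl7 (4.70), Ccl2 (3.71), 1700047I17Rik2 (3.05), Il12b (3.02), Ccnb2 (2.97), Mcm10 (2.93), Marco (2.78), Il6 (2.68), D2Ertd750e (2.68) and Zdhhc2 (2.66). Smaller or more negative ones were those of Pydc3 (-6.55), Gdf3 (-3.61), Scd2 (-3.48), Tsc22d3 (-3.17), Cxcr4 (-2.69), Mid1 (-2.55), Arg1 (-2.54) and Cyp51 (-2.47). Xist (-5.70) and Ptgfr (-3.93) were listed at 0 in all knockout libraries, so their knockout change was 0 and the difference comes from the wild-type libraries alone. Its size depends on the pseudocount and is no bound. For Xist it reflects the WT LPS libraries that carry this RNA and the WT M0 libraries nearly without it. Of all genes named in this paragraph only Xist kept its call with no filter on low genes.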

How the results depend on the processing

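In the knockout response, 3321 to 4974 genes were called, against 4233, with 1310 to 2110 higher and 1849 to 3227 lower, and each alternative shared 75.2% to 99.8% of the 4233 calls. Of 375 named genes called in the knockout, 340 kept their call under every alternative run, and none of the called ones changed direction. The difference between responses, with 152 calls (94 higher, 58 lower), moved more. The causes were not tested. A pseudocount of 0.1 gave 92 (54 higher, 38 lower), no filter 10 (1 higher, 9 lower) and a minimum mean of 5 TPM 104 (57 higher, 47 lower). Leaving out 1 library gave 6 to 146 calls, 0 to 97 of them higher and 6 to 49 lower, with the lowest count without WT M0 replicate 1. Leaving out a KO LPS library leaves 1 sample on each side, assumed to vary like the other groups. The replicate block, with numbers taken from the titles and none for KO M0, gave 4974 calls (1747 higher, 3227 lower) in the knockout and 206 (122 higher, 84 lower) for the difference. Deviations of same-numbered libraries correlated at 0.298, 0.181 and 0.0804 for the 3 pairs of groups, so the numbers were not taken to pair the samples. TPM keep no depth, so the counting error of low genes is unknown, and the single KO M0 library limits every value.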
